A study of Papaver somniferum with 9 samples.

Results

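Expression in the stem of opium poppy (Papaver somniferum) was compared with expression in its top leaf at the filling stage, when the capsule fills after the flowers have fallen. Both organs came from the cultivar B1, which the study treats as the original, wild form. The stem samples were pieces from the middle of the stem, and 3 samples of each organ were sequenced, so 6 of the 9 samples of the series were used. The plants grew in the experimental plot of the study, which names no treatment of them. The study calls its samples independent, but it was not stated whether each came from a separate plant, so the p-values measure the spread between these samples. The members are unigenes, the non-redundant genes of a full-length transcriptome that was made from pooled B1 RNA. By the sample list of the study, most of the B1 samples mixed in equal amounts for this pool were leaves, and fewer were stem or root. Whether this bears on the numbers of unigenes higher or lower in stem below was not tested. Each unigene carries an expression value in RPKM. In it, read numbers are scaled to the length of the unigene and to the total of reads mapped in that sample. A unigene was included when 3 or more of the 6 samples had values over 0.1 RPKM. This held for 47493 of 61856 unigenes (76.8%). At the edge of this limit, 367 unigenes with a third-highest value of 0.11 RPKM were kept and 380 with a third-highest value of 0.1 RPKM were left out.

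The stem of a flowering poppy carries water and sugars between root, leaves and capsule, and it holds much of the vascular and supporting tissue of the shoot. The leaf is the main site of photosynthesis. Latex vessels run beside the phloem in both organs. In opium poppy, enzymes of benzylisoquinoline alkaloid synthesis have been located in the sieve elements of the phloem, and the alkaloids are stored in the latex. The expression table pairs no gene names with the unigene IDs, and 0 of the IDs matched an entry of the RefSeq gene table used here. The study states that it deposited a functional annotation of the unigenes, which was not used here, so the organs were not checked against their marker genes and no pathway is named. In samples that mix the cell types of an organ, fewer cells of a type and less RNA per cell cannot be told apart.

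The organs stood well apart, and the stem samples were much less alike than the leaf samples. In a principal component analysis of log2(RPKM + 1), the first component held 56.2% of the total sum of squares and separated every stem sample from every leaf sample. Stem replicates 1, 2 and 3 had scores of -89.9, -109.2 and -123.4, and leaf replicates 1, 2 and 3 had 110.2, 106.2 and 106.1. The second component held 28.0% and spread the stem samples, from -140.6 in stem replicate 3 to 49.8 in replicate 2 and 110.1 in replicate 1. Leaf scores on this component ran only from -20.5 to 4.31. Thus the gap between stem replicate 3 and the other stem samples was the main pattern within an organ. Of the total sum of squares, 55.9% lay between the organs, 35.3% among the stem samples and 8.80% among the leaf samples.

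**Figure D1:**
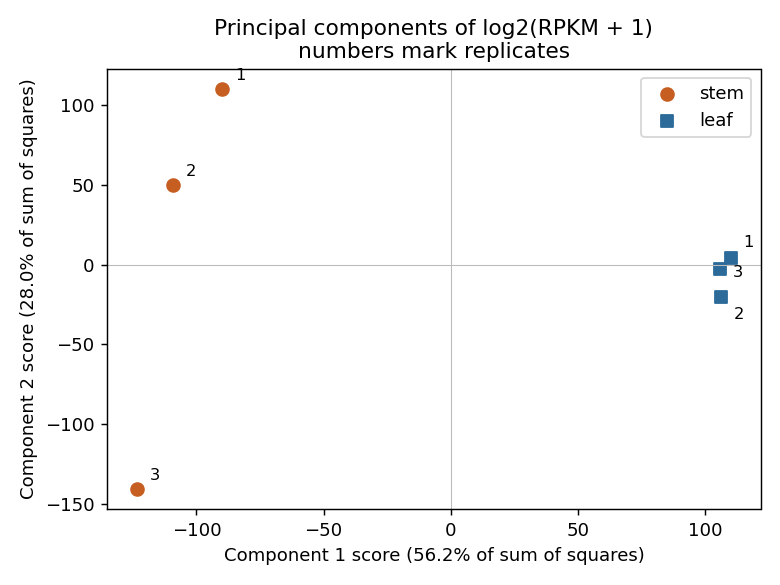
Scores of the 3 stem and 3 leaf samples on the first and second principal components of log2(RPKM + 1) over 47493 unigenes, with each point labelled by its replicate number. The first component (56.2%) parts the organs, and the second (28.0%) parts stem replicate 3, at -140.6, from stem replicates 1 and 2.

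The same difference in spread was present unigene by unigene. The median standard deviation over 3 replicates was 0.38 in stem and 0.19 in leaf on the log2(RPKM + 1) scale, and it was larger in stem for 76.0% of the unigenes. Replicates differed by at least 2-fold for 35.1% of the unigenes in stem and for 7.64% in leaf. Above a mean of 15 RPKM these shares were 42.1% and 7.77%, so the wider spread of stem was not confined to low values. Stem replicate 3 had the lowest median, 1.44 RPKM over the unigenes included, against 2.44 and 2.27 in stem replicates 1 and 2 and 1.88 to 2.19 in leaf. It also had the most unigenes listed at 0, with 2547 against 989 to 1635 in the other 5 samples. The study lists a lower sequencing yield for stem replicate 3 than for the other stem samples, and a slightly lower one still for leaf replicate 2. It also lists an RNA purity ratio under its stated limit for stem replicate 2. Whether yield or purity bears on these values was not tested. According to the quality records of the study, RNA integrity was lower in every leaf sample than in every stem sample, so organ and RNA integrity cannot be told apart in any comparison below.

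Differences were tested with limma on log2(RPKM + 1), and calls required a fold change of at least 2 on that scale together with a Benjamini-Hochberg adjusted p-value under 0.05. Of the 47493 unigenes, 5498 (11.6%) were called, with 2171 (4.57%) higher in stem and 3327 (7.01%) lower in stem. In every called unigene the 3 stem values lay entirely above or entirely below the 3 leaf values. The reverse did not hold. The organs did not overlap for 15815 unigenes (33.3%), of which 34.8% were called. Another 8671 of them differed by less than 2-fold, and 1646 passed the fold change limit without passing the test.

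**Figure D2:**
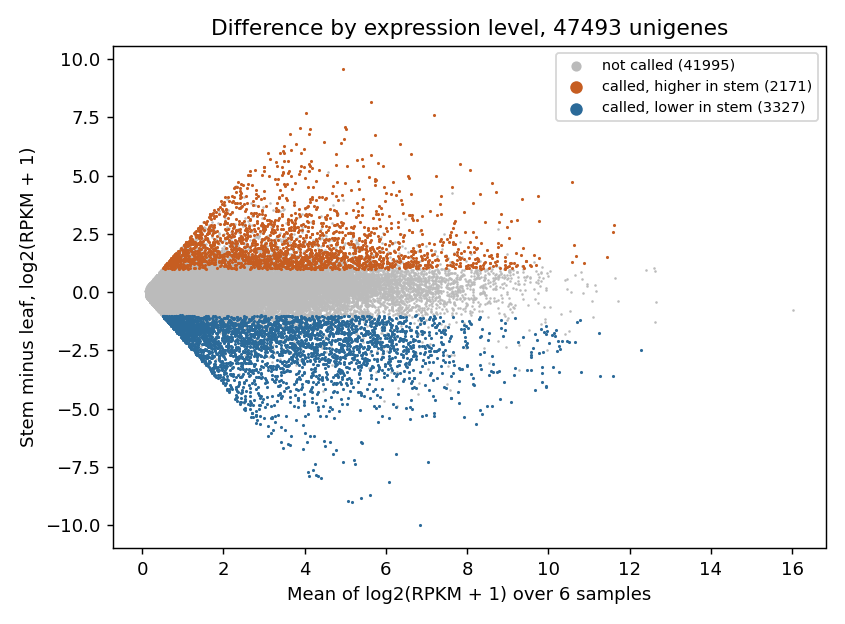
Difference between stem and leaf (mean stem minus mean leaf, log2(RPKM + 1)) against the mean of log2(RPKM + 1) over the 6 samples, 1 point per unigene, with the 2171 called higher in stem and the 3327 called lower in stem coloured. The slanted outer edges are set by the scale, since a unigene with a low mean cannot have a large difference on it.

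The balance of directions depended on the criterion and on stem replicate 3. Among the called unigenes 39.5% were higher in stem. Among all tested unigenes whose means differed by at least 2-fold, called or not, 3986 were higher and 4288 lower in stem, and without stem replicate 3 these became 5021 and 4187. Among unigenes whose samples did not overlap, 8181 (17.2%) were above leaf in stem and 7634 (16.1%) below. Quantile normalization kept this order, with 8876 and 8090. Scaling each sample by its median ratio to the others turned it, to 7629 and 8756. Without stem replicate 3, which leaves 2 stem samples to set against 3 leaf samples, 16515 of the 47493 unigenes were above and 9486 below. Fewer samples make non-overlap easier to reach, so these totals cannot be set against those from all 6 samples. No other sample was left out for this count. Without stem replicate 3 the test called 8086 unigenes, 4297 higher and 3789 lower in stem, so the sign of the imbalance changed. Of the 5498 unigenes called from all 6 samples, 5237 were also called without it. Leaving out leaf replicate 1, 2 or 3 gave 3277, 3345 and 3211 calls, of which 948, 994 and 1038 were higher in stem, and leaving out stem replicate 2 gave 3997, of which 1385 were higher. A core of 2833 unigenes was called in the same direction in each of the 6 fits that left out 1 sample, namely 846 higher in stem (39.0% of those called) and 1987 lower (59.7%).

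The 1646 unigenes without overlap whose means differed by at least 2-fold, but which were not called, leaned to the other side. In stem, 1063 of them were higher and 583 lower. Among the 1063, stem replicate 3 was the stem sample nearest to the leaf mean for 45.3%, and stem replicate 2 for 17.8%. Among the 583, stem replicate 1 was the nearest for 56.4% and stem replicate 3 for 15.6%. Stem replicate 3 therefore tended to have the lowest of the stem values on both sides. The same order was found among the called unigenes, in which stem replicate 3 was nearest to leaf for 50.8% of those higher in stem and for 16.8% of those lower in stem. Over all unigenes the 3 stem samples were nearest about equally often, in 33.8%, 34.4% and 31.8% of cases. Stem replicate 3 was low there too, with a median difference to the leaf mean of -0.17, against 0.16 and 0.11 in stem replicates 1 and 2. Its median-ratio scaling factor was 0.776, against 1.234 and 1.163. Its low position is thus not particular to the groups above, and it was not computed on scaled values.

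Most called differences were moderate. The median absolute difference was 1.68 on the log2(RPKM + 1) scale for unigenes higher in stem (quartiles 1.30 and 2.46) and 2.0 for those lower in stem (quartiles 1.47 and 2.74). Over all unigenes tested it was 0.35. Between 2-fold and 4-fold there were 1356 higher and 1669 lower in stem, which is more than any other band held, and here alone the order turned without stem replicate 3, to 3214 higher and 2126 lower. From 4-fold to 8-fold the numbers were 489 and 1007, and from 8-fold to 16-fold 178 and 405. In these middle bands, and in the next from 16-fold to 32-fold with 82 and 156, unigenes lower in stem were roughly 1.9 to 2.3 times as many as those higher in stem. The size of this imbalance depended on the setting. Without stem replicate 3 it was smaller, with 655 and 1010, 256 and 389, and 99 and 164 in these bands. After median-ratio scaling it was larger, with 445 and 1021, 167 and 431, and 76 and 164. Differences of at least 8-fold were more often towards leaf in the 4 settings in which they were counted. Regardless of the test there were 363 higher and 673 lower in stem, 346 and 716 after median-ratio scaling, 350 and 713 after quantile normalization, and 444 and 661 without stem replicate 3.

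**Figure D3:**
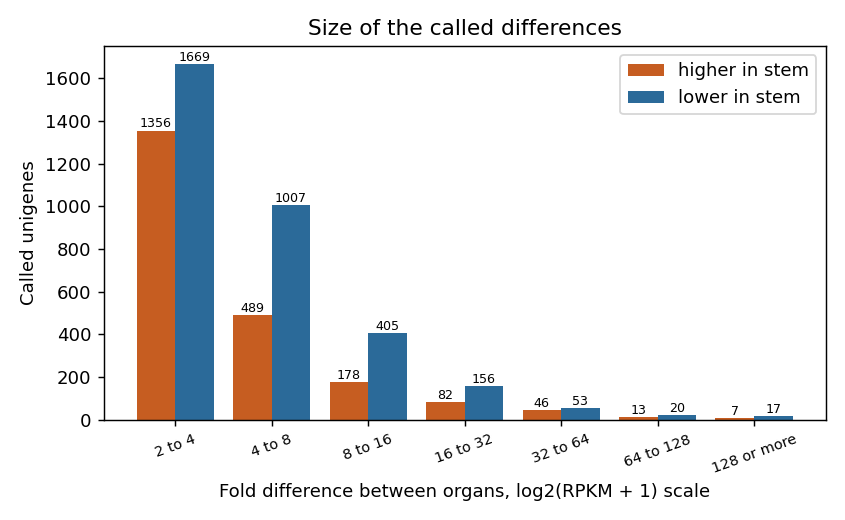
Number of called unigenes (vertical axis) by the size of the fold difference between organs on the log2(RPKM + 1) scale (horizontal axis), with bars for unigenes higher and lower in stem. The bars fall from 1356 and 1669 between 2-fold and 4-fold, where the order of the directions turned without stem replicate 3, to 7 and 17 at 128-fold or more.

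At 32-fold or more, 66 unigenes were higher and 90 lower in stem, and without stem replicate 3 these numbers were 73 and 100. Both groups reached a median of about 150 RPKM in the organ where they were high, 151.3 in stem and 149.9 in leaf. Their median in the other organ was 1.10 RPKM for the stem group and 0.90 RPKM for the leaf group. Much of this contrast is set by the fold limit itself. A mean under 1 RPKM in the lower organ was found for 32 of the 66 and 47 of the 90, while 11 and 18 were above 5 RPKM there. Together the 90 unigenes took 3.06% to 3.40% of the summed RPKM of a leaf sample and 0.0316% to 0.0672% of that of a stem sample. The 66 took 1.41% to 2.43% in stem and 0.0187% to 0.0234% in leaf. Replicates within the organ of high expression varied more in stem. Of the 66, 45 differed by at least 2-fold between stem replicates, and of the 90, 19 did so between leaf replicates.

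The distance between the nearest samples of the organs gives a stricter view of the separation than the distance between means. For 51.4% of the called unigenes higher in stem, the lowest stem sample was at least 2-fold above the highest leaf sample on the log2(RPKM + 1) scale. For unigenes lower in stem, the lowest leaf sample was at least 2-fold above the highest stem sample in 69.6%. Stem replicate 3 was the stem sample nearest to leaf for 50.8% of the called unigenes higher in stem and for 16.8% of those lower in stem. The gaps were not computed on scaled values or without that sample, so the contrast between the directions may depend on it. A gap of at least 8-fold was left by 130 and 296 unigenes, and one of at least 64-fold by 7 and 22. Of the 20 unigenes with the largest mean difference in each direction, 14 of those higher in stem and 18 of those lower in stem were also among the 20 with the widest gap.

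The unigenes with the largest rise and fall in stem that separated all samples are given with every value. PB.22420.4 had 1451, 1937 and 216 RPKM in stem replicates 1, 2 and 3, and was listed at 0, 0 and 0.35 RPKM in leaf replicates 1, 2 and 3. It was strongly expressed in every stem sample and at or near 0 in every leaf sample, and stem replicate 3 lay far under the other stem samples. Its difference was 9.58 on the log2(RPKM + 1) scale (standard error 0.77, adjusted p = 0.000584 from limma), and 12.32 with a pseudocount of 0.1 RPKM, since leaf values at 0 leave its size to the pseudocount. PB.8569.19 had 640.5, 1101 and 807 RPKM in the stem samples and 3.33, 2.26 and 0.79 RPKM in the leaf samples. Its stem samples lay within 2-fold of each other and far above every leaf sample. The difference was 8.14 (standard error 0.37, adjusted p = 0.00011 from limma).

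The largest fall was that of PB.58163.6, whose stem replicates were closer to each other than those of the other 3 unigenes. It had 2.68, 2.41 and 2.71 RPKM in stem replicates 1, 2 and 3, and 4421, 3664 and 3132 RPKM in leaf replicates 1, 2 and 3. The difference was -10.01 (standard error 0.20, adjusted p = 1.31e-05 from limma), and the gap between the nearest samples, 9.72, was the widest of all called unigenes. PB.9941.36 had 0.85, 0.83 and 0.15 RPKM in stem and 637.1, 1104 and 744.3 RPKM in leaf. Stem replicate 3 was again the lowest stem sample, and every leaf sample was far above every stem sample. The difference was -9.00 (standard error 0.30, adjusted p = 3.67e-05 from limma), and -10.38 with a pseudocount of 0.1 RPKM. For PB.8569.19 and PB.58163.6 that pseudocount gave 8.75 and -10.42. Each of these 4 calls held in the same direction when any 1 sample was left out, and the log2 difference then ran from 8.99 to 10.57 for PB.22420.4, from 7.79 to 8.42 for PB.8569.19, from -10.13 to -9.88 for PB.58163.6 and from -9.17 to -8.78 for PB.9941.36. The 4 were chosen as the largest differences of these same samples, so this stability is largely set by the choice.

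**Figure D4:**
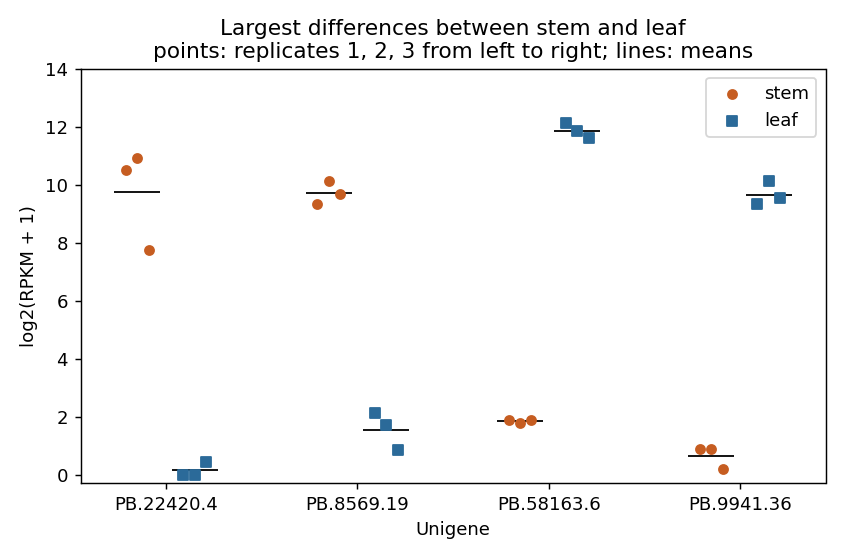
Expression on the log2(RPKM + 1) scale of the unigenes with the largest rises (PB.22420.4, PB.8569.19) and falls (PB.58163.6, PB.9941.36) in stem against leaf, 1 point per sample with replicates 1, 2 and 3 from left to right and a line at the mean. The organs do not overlap in any of them, and stem replicate 3 of PB.22420.4, at 216 RPKM, is far under the other stem samples.

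Highly expressed unigenes were called more often than low ones. The level was the mean of the same 6 values that the calls compare. A unigene high in only 1 organ is lifted to a higher bin by its own difference, so part of this pattern may be built in. Up to a mean of 5 RPKM over the 6 samples, 1617 of 30665 unigenes (5.27%) were called. From 5 to 15 RPKM the share was 16.1% of 8247, and from 15 to 100 RPKM 26.9% of 6917. Above 100 RPKM, 692 of 1664 unigenes (41.6%) were called, 18.8% higher and 22.8% lower in stem. The added 1 RPKM holds back low unigenes, and with 0.1 RPKM in its place 8.33% of the lowest bin and 41.5% of the highest were called, so the rise with expression level remained. Unigenes lower in stem outnumbered those higher in stem in all 4 bins, with 32.2% of the calls higher in stem in the lowest bin and 45.1% in the highest, but without stem replicate 3 this order turned in the bins up to 15 RPKM, to 1505 higher and 1203 lower in the lowest and 1275 and 868 in the next. Above 15 RPKM lower in stem remained the more frequent direction without that sample, with 1196 higher and 1267 lower up to 100 RPKM and 321 and 451 above it. The separation of samples followed the same course, with non-overlapping organs in 25.5% of the unigenes of the lowest bin and 65.6% of the highest.

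**Figure D5:**
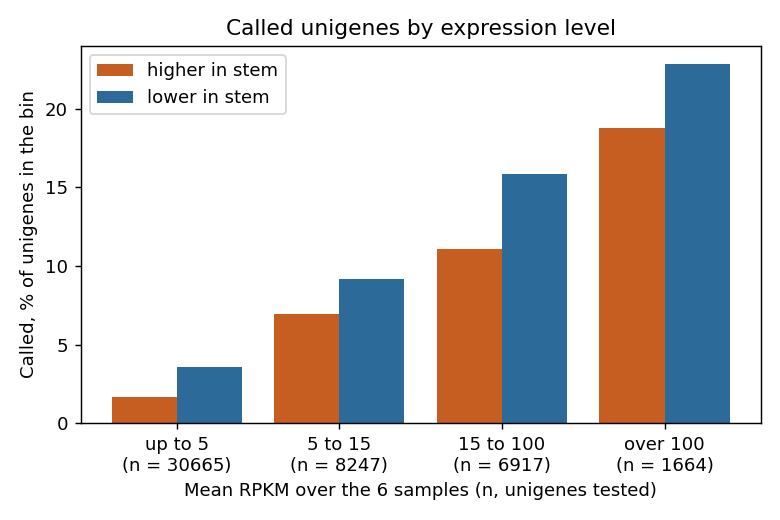
Percent of unigenes called higher or lower in stem (vertical axis) by their mean RPKM over the 6 samples (horizontal axis, with the number tested in each bin). Above 100 RPKM 18.8% were higher and 22.8% lower in stem, and lower in stem was the more frequent direction in every bin, an order that turned in the bins up to 15 RPKM without stem replicate 3.

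Many called unigenes were expressed in both organs. Unigenes higher in stem had a median of 24.1 RPKM in stem and 4.48 RPKM in leaf, and unigenes lower in stem a median of 18.6 RPKM in leaf and 2.88 RPKM in stem. A mean above 5 RPKM in the organ of lower expression was kept by 47.3% of those higher in stem and by 39.9% of those lower in stem. Hence a large part of the differences was a change of degree between organs that both expressed the unigene. Values of 0.1 RPKM or less throughout the lower organ were found for 95 unigenes higher in stem (4.38%) and 205 lower in stem (6.16%), and 40 and 91 of them were listed at 0 in all 3. Without stem replicate 3 the 95 and 205 became 136 and 287. That fit called more unigenes, 4297 higher and 3789 lower in stem. The 287 also needed low values in fewer stem samples, which is easier to reach, so these numbers cannot be set against those from all 6 samples. With a pseudocount of 0.1 RPKM the 95 and 205 became 266 (10.2% of the calls in that direction) and 534 (13.8%), so these shares depend on the scale.

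Some unigenes entered the comparison through 1 organ alone, above 0.1 RPKM in its 3 samples and at or under it in the other 3. There were 425 of these in stem and 671 in leaf, and they had to differ by the way they entered, so the 95 and 205 of them that were called are given only as a description. Most were low, with medians of 0.59 RPKM in stem and 0.61 RPKM in leaf. With 1 RPKM added, 65.4% and 66.9% of them stayed under a 2-fold difference and could not be called, against 4.71% and 4.77% with 0.1 RPKM added. Their highest means were 76.7 RPKM in stem and 74.0 RPKM in leaf, and 10 and 21 of them were above 15 RPKM. As the values hold no read counts, low values do not show absence from an organ.

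The called unigenes made up a substantial part of each library. Those higher in stem took 24.5%, 27.0% and 22.4% of the summed RPKM in stem replicates 1, 2 and 3, and 5.37% to 5.49% in the leaf samples. Those lower in stem took 34.5%, 36.9% and 37.1% in leaf replicates 1, 2 and 3. Their share of the 3 stem libraries, in the same order, was 7.47%, 6.75% and 4.60%. These shares describe groups that were chosen for the difference, so no test was made of them. Unigenes that were not called still held 66.2% to 72.8% of the summed RPKM in stem and 57.3% to 60% in leaf.

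Among the most abundant unigenes the organs shared a minority. Of the 100 with the highest mean in stem and the 100 with the highest mean in leaf, 32 were in both lists. In the leaf list 64 were called lower in stem and 3 higher, and in the stem list 42 were called higher in stem and 5 lower. Over all unigenes tested 7.01% were called lower and 4.57% higher in stem, and above 100 RPKM 22.8% and 18.8%. The lists were chosen on the same stem and leaf values that the calls rest on, so the direction of these calls is largely set by the choice, and no test was made of them. The most abundant unigene of all was not called. It had 78590, 39640 and 42224 RPKM in stem replicates 1, 2 and 3 and 89803, 87017 and 86123 RPKM in leaf replicates 1, 2 and 3, and was chosen for its level after its values were seen. Every stem value was under every leaf value, with a difference of -0.79 on the log2(RPKM + 1) scale (standard error 0.39, adjusted p = 0.26 from limma), and stem replicate 1 lay nearer to leaf than to the other stem samples.

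In these samples 50% of the summed RPKM lay in somewhat fewer unigenes in leaf than in stem, a separation that depended on the measure. The highest unigenes that together held 50% of the summed RPKM numbered 635, 540 and 514 in stem replicates 1, 2 and 3, and 462, 383 and 436 in leaf replicates 1, 2 and 3. The organs did not overlap, and the difference of means was 136 unigenes (exact permutation test, two-sided, p = 0.1, the smallest that 3 against 3 samples allow). Without the most abundant unigene the difference was 99.3 (exact permutation test, two-sided, p = 0.5). For 90% of the summed RPKM the organs overlapped, from 6771 to 10376 unigenes in stem and from 7573 to 8418 in leaf, and stem replicate 3 had the lowest number of the 6 samples.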

How the data were processed

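The authors removed low-quality paired-end reads, aligned the remainder by hisat2 2.05 against the unigene set from PacBio sequencing, and estimated expression with RSEM. The deposited values are RPKM per unigene and sample, rounded to 2 decimals, and the methods of the study also call the unit FPKM. No normalization between samples is stated. RPKM holds no read counts, so no count model was run. The study lists the yield of each library in bases, but the reads behind a single value, and with them any counting interval, are unknown. RSEM divides reads between similar sequences, which leaves the values of close copies uncertain. Unigene lengths and sequences were not used here.

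Columns were assigned to samples by the sample number in the labels, and the 3 root samples were not used here. For differences, linear models were fitted to log2(RPKM + 1) by limma 3.58.1 (R 4.3.3), with organ as the factor, the 6 samples only, an intensity trend and Benjamini-Hochberg adjustment over 47493 unigenes. The study's thresholds were used, a fold change of at least 2 and an adjusted p-value under 0.05. The fit was tested on simulated data with equal spread in both organs. As stem spread was wider here, that test does not show how the fit behaves with unequal spread. Named unigenes are the 2 largest rises and 2 largest falls among those called with no overlap of samples. The members and lists were chosen with earlier results of these data known. Tables were made with Python 3.11.15, pandas 2.3.3 and numpy 2.4.6. Alternatives were another pseudocount, other filters, 2 normalizations, no trend, 2 kinds of weights, a replicate block, no fold limit and leaving out each sample.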

Additional observations from a re-analysis of the deposited data

How the results depend on the processing

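The number of unigenes called between stem and leaf, 5498, stayed within 1.5 times that value under each alternative except sample weights and the fits without a leaf sample. Weights estimated per sample gave 9413, with 5075 higher in stem, but their estimation did not converge and they ran from 0.125 in stem replicate 3 to 15.3 in stem replicate 2. Leaving out 1 sample gave from 3211 to 8086 calls, from 948 to 4297 higher in stem and from 2173 to 3789 lower in stem. The cause was not tested. A stricter limit on low values, set at the edge between the middle expression classes of the study, left 19200 unigenes and 8873 with no overlap of the organs (46.2%), against 15815 (33.3%). Calls higher in stem were 35.0% of all calls with median-ratio scaling, 37.7% with quantile normalization and 53.9% with sample weights. Directions and calls of the 4 named unigenes, which were chosen for the size of their difference, held under every alternative run. Counts by level bin, by size band and of on-off differences under other settings were chosen after seeing the data. With the replicate block 4692 unigenes were called. Deviations of same-numbered stem and leaf samples correlated at 0.316, 0.12 and -0.0387, which does not show that the numbers pair these samples, and stem replicates 2 and 3 correlated best with leaf samples of other numbers.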
